A study of Mus musculus with 6 samples.

Results

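C2H2 zinc finger genes encode proteins built from short loops in which a pair of cysteines and a pair of histidines hold a zinc ion, and most of these proteins bind DNA through rows of such fingers. The genes described here are those listed as protein coding whose symbol starts with Zfp, Zbtb, Zscan, Zkscan or Klf followed by a digit, without the gene Zfp36 and its relatives, which encode RNA-binding proteins with fingers of another type. The rule found 29 genes among the 2065 of the deposited table. There were 23 Zfp genes, 3 Zbtb genes, 2 Klf genes, 1 Zkscan gene and 0 Zscan genes. In RefSeq's mouse annotation (GRCm38.p6) the same symbols cover 478 protein-coding genes, of which 17 are Klf and 41 are Zbtb genes. Those outside the table were not analysed here.

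RNA was sequenced from MLO-Y4, a mouse cell line that resembles osteocytes, the cells buried within bone matrix. The cells were kept in medium with fetal bovine serum. The 6 libraries are labelled normoxia (20% O2, replicates 2, 3 and 4) or hypoxia (2% O2 in a hypoxic chamber, replicates 1, 2 and 4). All titles state 24 h, while the descriptions of the libraries run from 24 to 26 h. All libraries come from 1 cell line, and no label states whether replicates were cultured separately. The p-values thus cover no more than the spread among these libraries, part or all of which may be technical.

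The table holds only genes that the authors had selected for change between these groups, whose smallest absolute log2 fold change in the authors' deposited table is 1.00. Counts of genes called higher or lower are therefore descriptions of selected genes. The same holds for the adjusted p-values of single genes below, which were computed within this selection and cannot serve as independent support. Entries are log2(value + 1) of a linear value whose unit is not named, so sequencing depth is unknown, and levels of different genes are not compared. On this scale the change of a gene with low values is smaller than its true ratio, so ratios of mean linear values are also given for some genes. In bulk RNA of this kind, fewer expressing cells and less RNA per cell cannot be told apart.

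The oxygen labels went against a textbook readout. All 9 listed genes out of 14 targets of hypoxia-inducible factor (HIF) on a fixed list were lower in the libraries labelled hypoxia. The glucose transporter gene Slc2a1 had entries of 10.77, 10.81 and 10.96 under the normoxia label and 7.86, 7.65 and 7.65 under the hypoxia label. Directions are therefore given by label only. Of 10 osteocyte markers only Pdpn was listed, higher under the hypoxia label (change 1.76), and Dmp1, Phex and Sost have no value in this table. Of 9 osteoblast markers 6 were listed, with a median change of 1.82; Col1a1 (2.71), Bglap2 (1.87), Col1a2 (1.85), Bglap (1.78) and Spp1 (1.10) were higher and Runx2 (-1.04) was lower. Of all tested genes 79.4% were higher. With trimmed mean factors, which place a gene relative to the centre of the table, 4 of the 5 higher osteoblast markers were still called higher. Spp1 was at -0.20, and of all higher genes 33.3% were still called. Of 3 muscle markers Acta1 (-2.59) was listed. Of 8 macrophage and osteoclast markers Mmp9 (1.16) was higher and Cd68 (-1.46) was lower. Mmp9 had entries of 0.11, 0.16 and 0.12 under the normoxia label. It passed the filter on low values only through the hypoxia libraries, so its call is a description and not support. Of 3 endothelial and 3 adipocyte markers 0 were listed. The part of all these cell types in the results below was not tested.

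C2H2 proteins differ in the domain that accompanies the fingers. Krüppel-like factors (Klf) carry their fingers at the end of the protein and bind GC-rich or CACCC elements. Zbtb proteins carry a BTB domain, through which they pair and recruit corepressors. Many Zfp proteins carry a KRAB box, which recruits Trim28 and through it histone methylation, often at transposable elements, and Zscan proteins carry a SCAN domain for pairing. Zkscan proteins are named for having both KRAB and SCAN domains.

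The label of the group was checked against protein sequence. All 29 genes were matched to GENCODE vM21 by Ensembl identifier, and the longest annotated protein of each was searched for C2H2 fingers. A finger was found in 28 of 29 (96.6%), against 3.66% of 21901 annotated protein-coding genes. The exception was Zbtb8os, taken in by its symbol only. It is named for its position opposite Zbtb8 genes and encodes archease, a cofactor of the RNA ligase that joins tRNA exons, and its protein of 167 residues had 0 fingers. Without it 28 genes remain, 24 higher and 4 lower.

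Finger number ranged from 1 in Zfp428 and Zfp395 to 17 in Zfp950, with a median of 10.0. Over the 478 annotated genes that fit the same symbol rule the median was 9.0. At an E-value under 1e-05 a KRAB box was found by a sequence profile in 16 of the 29 listed genes (55.2%) and in 242 of the 478 annotated ones (50.6%). Klf2 and Klf11 each had 3 fingers, Zbtb20 had 5 and Zbtb48 had 10.

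The promoters of the 2 Klf genes are shown because these genes changed in opposite directions and because Klf proteins bind GC-rich elements. Each is the 250 bases before the gene's start in RefSeq, 5′ to 3′ on the gene's strand, with GGGCGG or its reverse complement in capitals. Klf2 lies at chr8:72318812-72319061 and Klf11 at chr12:24651121-24651370, both on the plus strand of GRCm38.p6, an older build than the GRCm39 the submitters' processing notes name.
Klf2: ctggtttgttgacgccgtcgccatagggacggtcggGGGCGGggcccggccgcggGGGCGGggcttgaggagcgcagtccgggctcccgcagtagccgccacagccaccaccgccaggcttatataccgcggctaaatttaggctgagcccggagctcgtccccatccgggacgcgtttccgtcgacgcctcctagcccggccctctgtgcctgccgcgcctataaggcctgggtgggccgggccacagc
Klf11: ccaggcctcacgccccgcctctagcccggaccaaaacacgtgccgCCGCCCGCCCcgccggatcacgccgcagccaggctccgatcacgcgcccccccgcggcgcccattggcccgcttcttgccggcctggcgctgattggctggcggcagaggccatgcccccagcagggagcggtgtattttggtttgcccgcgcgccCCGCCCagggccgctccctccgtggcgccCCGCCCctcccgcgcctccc

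These letters occurred 2 times before Klf2 and 4 times before Klf11, 2 of which overlap in a single run. Of 23 members with a RefSeq promoter in the table used, 3 (13.0%) held them, Zfp825 being the third, against 35.4% of all 27025 genes with such a promoter. CACCC, the other Klf element, was found in 11 of 23 (47.8%), against 54.5% of all genes, both strands searched. ACGTG, the core of the HIF element, was found in 3 of 23 (13.0%), namely Klf11, Zfp933 and Zfp944, against 18.5% of all genes. Each of these 3 promoters held 1 CACGTG, the palindromic E-box read by clock and Myc-family factors, which contains ACGTG on both strands. CACGTG was found in 6.86% of all genes. TATAAA was found in 2 of 23 (8.7%), namely Zbtb8os and Zfp239, against 14.3% of all genes. A match says only that these letters are present. In 22 of the 25 promoters of these 23 members, the 30 bases after the start lay in a GENCODE vM21 transcript of the gene. The remaining promoters were kept in the shares. The promoter sequence of Zfp955a and Zfp955b is identical and counts for both genes in the CACCC share.

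By limma (Benjamini-Hochberg adjusted p under 0.05), 79.4% of the 2056 genes tested were higher under the hypoxia label and 20.6% were lower. All 29 genes chosen by symbol passed the filter on low values, and 25 (86.2%) were higher and 4 lower, or 24 and 4 of the 28 with a finger. The members are protein coding by rule, and of 1751 tested protein-coding genes with an annotated protein 85.0% were higher. The median change of those 1751 genes was 1.18. The median change was 1.13 for the members and 1.15 for all tested genes. The 25 higher genes had a median of 1.16 against 1.23 for all higher genes, and the 4 lower ones a median of -1.39 against -1.52 for all lower genes. In 29 of the 29 genes the 3 hypoxia libraries lay wholly above or wholly below the 3 normoxia libraries, as they did in 99.9% of all listed genes. The narrowest gap between the groups was 0.60 for Zfp969 and the widest 2.38 for Klf2.

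**Figure D1:**
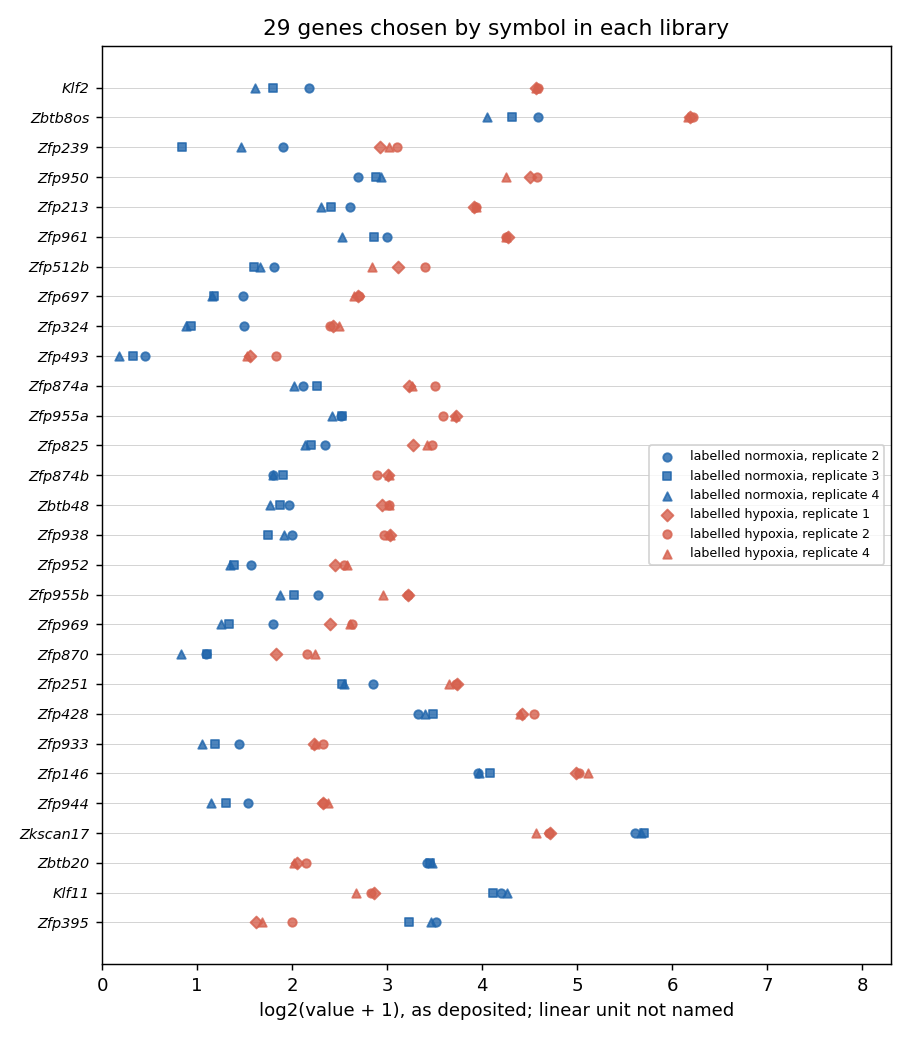
Entry of each of the 29 genes in each library, on the log2(value + 1) scale as deposited (x axis), ordered by change. Blue points are the 3 libraries labelled normoxia and red points the 3 labelled hypoxia, with the marker giving the replicate number. The groups do not overlap in any row, nor do they in 99.9% of all listed genes. Red lies to the left of blue in the lowest 4 rows, Zkscan17, Zbtb20, Klf11 and Zfp395.

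Normoxia replicate 2 was the highest of the 3 normoxia libraries in 18 of the 25 higher genes (72.0%), and in 72.4% of all 1638 higher genes of the table. The median entry over the members was 2.18, 2.02 and 1.91 in normoxia replicates 2, 3 and 4, and 3.03, 3.10 and 3.02 in hypoxia replicates 1, 2 and 4. Without normoxia replicate 2, 25 members were called higher and 4 lower, beside 1633 and 375 of all genes.

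Because 79.4% of the table was higher, the scaling of the libraries bears on every rise. The median change of the whole table was 1.15 as deposited, 0.36 after quantile normalization and 0.00 with trimmed mean factors, a scaling built on the premise that few genes differ. That premise is not met in a table selected for change. A call kept or ended with these factors therefore describes a gene relative to the centre of the table. With trimmed mean factors 26.4% of all tested genes were called higher and 24.9% lower. Of the 25 higher members 9 (36.0%) were then still called higher, 8 of them with a finger, 16 were not called and 0 were called lower, and 3 of those not called lay below 0 (Zfp251, Zfp428 and Zfp146). The 9 were Klf2, Zbtb8os, Zfp950, Zfp213, Zfp961, Zfp512b, Zfp697, Zfp324 and Zfp493. Of all 1633 higher genes, 543 (33.3%) were still called. With quantile normalization 67.6% of all tested genes were called higher; 21 of the 25 higher members (84.0%) were still called, as were 85.1% of all higher genes. The 4 lower genes were called lower under both, beside 20.5% of all tested genes under quantile normalization. Relative to the table's median change, 13 members lay above it and 16 below, of which 12 were higher genes.

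**Figure D2:**
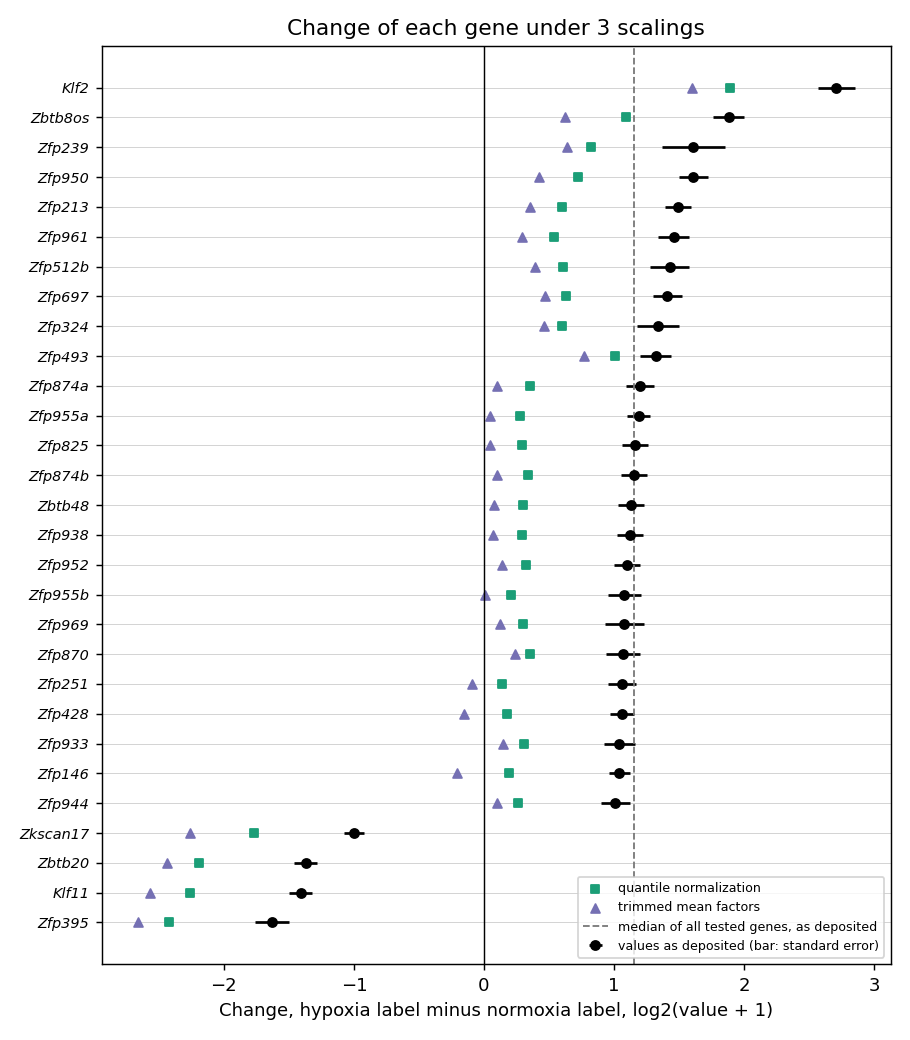
Change of each gene on the log2(value + 1) scale (x axis, hypoxia label minus normoxia label) from the values as deposited (circles, bars are standard errors), after quantile normalization (squares) and with trimmed mean factors (triangles). The dashed line is the median of all tested genes, 1.15. The triangles of Zfp251, Zfp428 and Zfp146 lie below 0, and the 4 lowest rows lie below 0 under each scaling.

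The Klf genes were split. Klf2, a factor induced by fluid flow in endothelium and known there and in monocytes for restraining inflammatory genes, had entries of 2.18, 1.80 and 1.61 under the normoxia label and 4.57, 4.59 and 4.57 under the hypoxia label. The SD of the hypoxia libraries was 0.01 (n = 3), and every one was above every normoxia library. The groups were also separate in 99.9% of all listed genes. The change of 2.71 ± 0.14 (standard error; limma, Benjamini-Hochberg adjusted p = 1.22e-07) was the largest among the members, and the ratio of mean linear values was 8.47. It lay 1.56 above the table's median and was 1.60 with trimmed mean factors (limma, adjusted p = 9.57e-06).

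Klf11, a TGF-beta-inducible factor that represses transcription with the Sin3 corepressor, went the other way. It had entries of 4.20, 4.12 and 4.26 under the normoxia label and 2.86, 2.83 and 2.67 under the hypoxia label. The mean linear value was 2.93 times higher under the normoxia label, and the change was -1.41 ± 0.09 (limma, adjusted p = 3.91e-07). Of 14 cofactors and regulators of Klf proteins on a fixed list 1 was listed, the acetyltransferase gene Kat2b, at 3.35, 2.98 and 2.68 under the normoxia label and 4.08, 3.80 and 4.18 under the hypoxia label (change 1.02 ± 0.17). That call ended with quantile normalization (change 0.10; limma, adjusted p = 0.537) and with trimmed mean factors its change was -0.16.

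The Zbtb genes with fingers were also split. Zbtb48, which in human cells binds telomeric repeats and promotes their trimming, had entries of 1.97, 1.87 and 1.77 under the normoxia label and 2.95, 3.02 and 3.02 under the hypoxia label. Its change of 1.13 ± 0.10 was close to the table's median, 0.03 below it, and trimmed mean factors ended the call (change 0.08; limma, adjusted p = 0.409). Zbtb20, a repressor known for silencing alpha-fetoprotein in mouse liver and for its part in maturing cartilage cells, had entries of 3.42, 3.45 and 3.47 under the normoxia label, with an SD of 0.02 (n = 3), and 2.05, 2.15 and 2.02 under the hypoxia label. It changed by -1.37 ± 0.09 (limma, adjusted p = 3.94e-07), and its mean linear value was 3.09 times higher under the normoxia label.

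Zbtb8os, the archease gene without fingers, had entries of 4.59, 4.31 and 4.05 under the normoxia label and 6.19, 6.22 and 6.17 under the hypoxia label. Its change of 1.88 ± 0.12 was second to that of Klf2 among the members on the log2(value + 1) scale. Its ratio of mean linear values, 3.77, was below those of Zfp493 (8.52), Klf2 (8.47) and Zfp239 (4.03). The gene was still called with trimmed mean factors (0.62, limma, adjusted p = 0.000777). A share of 4.6% of the 75-base stretches of its transcripts also occurs in transcripts of other genes. Of 17 partners of BTB zinc finger proteins on a fixed list, which include the ubiquitin ligase subunit Cul3 and the corepressor Ncor1, 1 was listed. That was the histone deacetylase gene Hdac4, with a change of 1.15 ± 0.09 as deposited and -0.07 with trimmed mean factors.

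The other lower genes were Zfp395 and Zkscan17. Zfp395, whose human counterpart has been described as induced by low oxygen, had entries of 3.51, 3.23 and 3.46 under the normoxia label and 1.62, 2.00 and 1.68 under the hypoxia label. It was the member furthest below 0, at -1.63 ± 0.13 (limma, adjusted p = 1.24e-06), with a mean linear value 3.95 times higher under the normoxia label. Zkscan17, also called Nizp1, which in mouse binds the histone methyltransferase Nsd1, had entries of 5.61, 5.70 and 5.67 under the normoxia label and 4.71, 4.70 and 4.57 under the hypoxia label. Its change of -1.0 ± 0.08 lay just inside the authors' limit, and its mean linear value was 2.04 times higher under the normoxia label. The 4 lower genes had 1, 3, 5 and 4 fingers (Zfp395, Klf11, Zbtb20 and Zkscan17), a median of 3.5, and a KRAB box was found in 0 of them at an E-value under 1e-05. Relative to the table's median change they lay between -2.78 (Zfp395) and -2.15 (Zkscan17).

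The 16 genes with a KRAB box at this limit were all higher under the hypoxia label, with changes from 1.01 (Zfp944) to 1.61 (Zfp950) and a median of 1.13. Of the 13 members in which no box was found, 9 were higher and 4 lower, with changes from -1.63 to 2.71 and a median of 1.13. The table held 5 further KRAB genes under other symbols, and these were higher as well, so that 21 of 21 were higher, with changes from 1.01 to 1.73. Of all 1751 tested protein-coding genes with an annotated protein, 85.0% were higher. With an E-value limit of 0.001, 0.1 or 1, chosen after seeing the data, Zfp213 (higher, E-value 0.000133) and Zkscan17 (lower, E-value 0.000444) were added, giving 17 higher and 1 lower among 18 members and 22 higher and 1 lower among 23 listed genes. The uniform direction thus depends on the limit. With trimmed mean factors 6 of the 21 (28.6%) were called higher and 0 lower, and 1 (4.76%), Zfp251, was below 0, beside 27.6% called higher and 47.3% below 0 of the 1751. The genes were selected for change, so this count says nothing of KRAB genes outside the table.

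**Figure D3:**
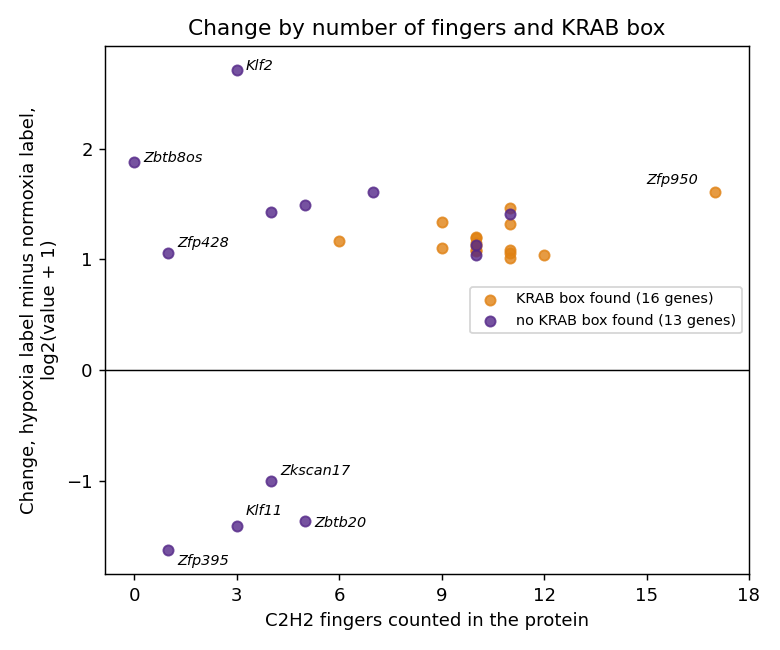
Change of each of the 29 genes on the log2(value + 1) scale (y axis, values as deposited) against the number of C2H2 fingers counted in its protein (x axis), with the 16 genes with a KRAB box at an E-value under 1e-05 in orange and the other 13 in purple. All orange points lie between 1.01 and 1.61, and the 4 points below 0 are purple with 1 to 5 fingers.

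Among the KRAB genes the largest change was that of Zfp950, whose protein held 17 fingers, with entries of 2.69, 2.88 and 2.94 under the normoxia label and 4.50, 4.58 and 4.25 under the hypoxia label (change 1.61 ± 0.11). Zfp961 had entries of 3.0, 2.86 and 2.53 against 4.27, 4.25 and 4.25 (1.46 ± 0.12). Zfp324 had entries of 1.49, 0.93 and 0.88 against 2.43, 2.40 and 2.49 (1.34 ± 0.16). In these 3 genes the groups lay at least 0.91 apart, and with trimmed mean factors their changes were 0.42, 0.29 and 0.46, with adjusted p of 0.0281, 0.044 and 0.0444 (limma).

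Zfp493 had entries below 1 in all 3 normoxia libraries, at 0.45, 0.32 and 0.18 under the normoxia label and 1.56, 1.83 and 1.52 under the hypoxia label. Its change was 1.32 ± 0.12, while its ratio of mean linear values, 8.52, was the highest of the members, since the scale understates changes of low values. The mean linear value was 0.249 in the normoxia group and 2.12 in the hypoxia group. It passed the filter on low values only through the hypoxia libraries. It stayed called with trimmed mean factors (0.77, limma, adjusted p = 0.000664), but for that reason the call is a description and not support for the change.

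KRAB genes arise by local duplication, and several members are neighbours. Chromosome 17 held 6 members (7.32% of its 82 listed genes) and chromosome 13 held 4 (4.76% of 84), beside 29 of 2065 over the whole table. In RefSeq's gene order, Zfp874a and Zfp874b on chromosome 13 had 0 protein-coding genes between them, and Zfp493 followed after 8 more. On chromosome 17, Zfp955a and Zfp955b had 1 gene between them, Zfp952 was 7 genes and Zfp870 a further 3 genes away. All of these were higher under the hypoxia label, as were 85.0% of the 1751 tested protein-coding genes with an annotated protein.

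Zfp955a and Zfp955b lie on opposite strands, at chr17:33255146-33255395 and chr17:33289294-33289543 of GRCm38.p6 for the 250 bases before their starts. The sequence is shown because it is the same for both genes, with 0 differing bases, so that it stands for 2 promoters.
Zfp955a and Zfp955b: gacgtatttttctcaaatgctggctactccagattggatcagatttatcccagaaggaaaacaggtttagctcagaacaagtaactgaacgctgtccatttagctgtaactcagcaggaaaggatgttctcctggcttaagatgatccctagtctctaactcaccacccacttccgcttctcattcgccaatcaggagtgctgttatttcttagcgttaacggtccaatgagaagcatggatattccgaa

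Their longest proteins, of 545 residues each, were 95.4% identical. Of the 75-base stretches of Zfp955a transcripts 37.1% also occur in Zfp955b, and of those of Zfp955b 22.2% occur in Zfp955a, so that reads may have been split between them. Zfp955a had entries of 2.51, 2.52 and 2.42 under the normoxia label and 3.73, 3.59 and 3.71 under the hypoxia label (change 1.19 ± 0.09). Zfp955b had 2.27, 2.02 and 1.87 against 3.22, 3.22 and 2.96 (1.08 ± 0.13). Both were higher in every hypoxia library than in any normoxia library, and the groups were likewise separate in 99.9% of all listed genes. With trimmed mean factors the changes of Zfp955a and Zfp955b were 0.05 and 0.01.

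Zfp874a and Zfp874b encode proteins that were 93.1% identical, and share 4.71% and 8.34% of their 75-base stretches with each other. Zfp874a had entries of 2.11, 2.26 and 2.02 under the normoxia label and 3.23, 3.50 and 3.26 under the hypoxia label (1.20 ± 0.11). Zfp874b had 1.80, 1.90 and 1.80 against 3.01, 2.89 and 3.02 (1.15 ± 0.10). Both changes ended as calls with trimmed mean factors (0.10 each; limma, adjusted p = 0.444 and 0.389).

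Zfp969 on chromosome 2 cannot be told from its copy by these stretches. All of its 75-base stretches (100%) also occur in transcripts of Zfp968, which is not among the listed genes. It had entries of 1.80, 1.34 and 1.25 under the normoxia label and 2.40, 2.63 and 2.61 under the hypoxia label (1.08 ± 0.15). Zfp825 shares 17.0% of its stretches with other genes, most of them with Gm46430, a listed long noncoding RNA. Its entries were 2.35, 2.20 and 2.14 against 3.27, 3.47 and 3.42 (1.16 ± 0.10), equal to the table's median change.

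The remaining KRAB members lay close together and close to the table's median change on the log2(value + 1) scale. The authors' selection starts at an absolute change of 1.00, which bounds these changes from below. Their ratios of mean linear values ran from 2.28 (Zfp251) to 3.19 (Zfp870). Zfp938 had entries of 2.00, 1.75 and 1.91 under the normoxia label and 3.03, 2.97 and 3.03 under the hypoxia label (1.12 ± 0.10). Zfp952 had 1.57, 1.39 and 1.35 against 2.45, 2.55 and 2.58 (1.10 ± 0.10), and Zfp870 had 1.09, 1.10 and 0.83 against 1.83, 2.16 and 2.24 (1.07 ± 0.13). In each the hypoxia libraries all lay above the normoxia libraries, beside separate groups in 99.9% of all listed genes. Zfp251 went from 2.85, 2.53 and 2.55 to 3.74, 3.73 and 3.65 (1.06 ± 0.11), and Zfp933 from 1.44, 1.19 and 1.05 to 2.23, 2.33 and 2.24 (1.04 ± 0.12). Zfp944, which shares 4.76% of its stretches with other genes, went from 1.54, 1.30 and 1.15 to 2.33, 2.32 and 2.38 (1.01 ± 0.11). With trimmed mean factors none of these 6 was called, their changes running from -0.09 for Zfp251 to 0.24 for Zfp870.

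Among Zfp genes without a KRAB box at the E-value limit of 1e-05, Zfp239, also known as Mok2, whose protein of 7 fingers binds both DNA and RNA, was the least even. Its entries were 1.90, 0.84 and 1.46 under the normoxia label and 2.92, 3.10 and 3.02 under the hypoxia label. The SD of its normoxia libraries, 0.53, was the widest among the members, and its change was 1.61 ± 0.24 (limma, adjusted p = 0.000148). The ratio of its mean linear values was 4.03. With trimmed mean factors the change was 0.64 and the call ended (limma, adjusted p = 0.0726).

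Zfp213, a member with 5 fingers, had entries of 2.61, 2.41 and 2.30 under the normoxia label and 3.91, 3.94 and 3.94 under the hypoxia label (1.49 ± 0.10). Zfp697, described in mouse skeletal muscle as a regulator of remodelling, had entries of 1.48, 1.18 and 1.16 against 2.69, 2.70 and 2.65 (1.41 ± 0.11), and 8.61% of its stretches also occur in Gja5 transcripts. Zfp512b had entries of 1.81, 1.60 and 1.66 against 3.11, 3.40 and 2.84 (1.43 ± 0.15). These 3 were still called with trimmed mean factors, with changes of 0.35, 0.47 and 0.39 and adjusted p of 0.00475, 0.00394 and 0.0346 (limma).

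Zfp146, whose protein consists of little more than its 10 fingers in 292 residues, had entries of 3.96, 4.08 and 3.97 under the normoxia label and 4.99, 5.02 and 5.11 under the hypoxia label. Its change of 1.04 ± 0.08 turned to -0.21 with trimmed mean factors (limma, adjusted p = 0.0838). Zfp428, with 1 finger in 189 residues, had entries of 3.32, 3.48 and 3.40 against 4.42, 4.55 and 4.40 (1.06 ± 0.09), and its change turned to -0.15 (adjusted p = 0.204). Relative to the table's median change they lay at -0.11 and -0.09.

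**Figure D4:**
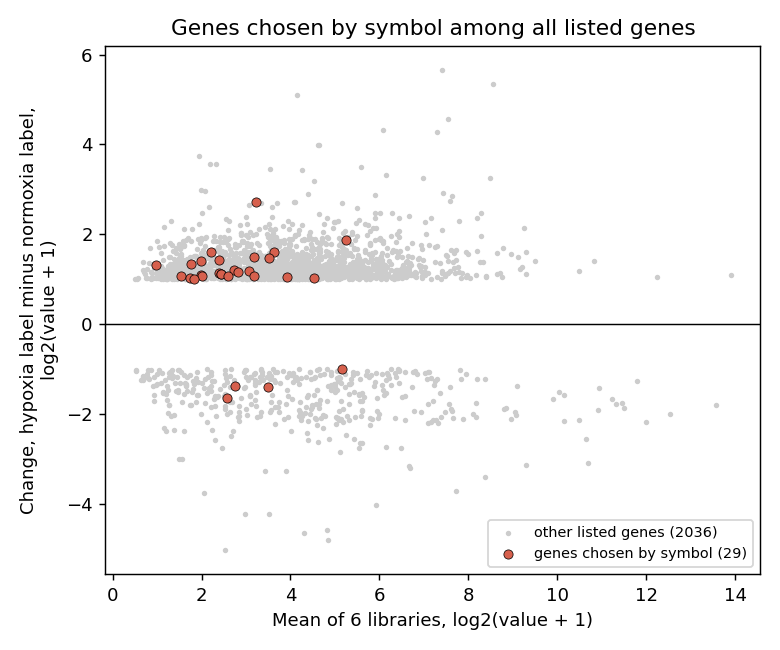
Change of every listed gene (y axis, hypoxia label minus normoxia label on the log2(value + 1) scale, as deposited) against its mean over the 6 libraries (x axis). The 29 genes chosen by symbol, of which 28 have a finger, are in red; the other listed genes in grey include 24 with a finger; the empty band around 0 follows from the authors' selection, and Klf2 is the highest red point at 2.71.

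Of 115 C2H2 factors under other names on a fixed list, 8 were listed, 5 higher and 3 lower, beside 79.4% and 20.6% of all tested genes. The immediate early gene Egr3 had entries of 0.48, 0.36 and 0.29 under the normoxia label and 2.20, 2.19 and 2.18 under the hypoxia label (1.81 ± 0.09). It was the 1 of these 5 higher genes still called with trimmed mean factors (1.16). Like Zfp493, it passed the filter on low values only through the hypoxia libraries. Its ratio of mean linear values was 11.9, from a mean of 0.3 in the normoxia group. Snai1 and Snai2, related repressors of epithelial genes, were split like the Klf genes. Snai1 went from 4.74, 4.27 and 4.32 to 5.76, 5.87 and 5.72 (1.34 ± 0.13; 0.08 with trimmed mean factors), and Snai2 from 4.83, 4.97 and 5.10 to 3.84, 3.87 and 3.97 (-1.07 ± 0.09). Prdm10 (-2.02 ± 0.10) and Prdm15 (1.22 ± 0.08; -0.03 with trimmed mean factors) were split too. Yy2, a relative of the factor Yy1, and Tshz1 changed by 1.12 and 1.08 (0.21 and -0.04 with trimmed mean factors), and Zxdc, described in human as a partner of the MHC class II activator, by -1.57. The bone factor Sp7 and the other Sp genes on the list have no value in this table.

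Of 30 genes of the KRAB repressor machinery on a fixed list, 3 were listed, and the corepressor gene Trim28 has no value in this table. Setdb1, the histone H3 lysine methyltransferase that Trim28 recruits, went from 3.84, 3.67 and 3.65 under the normoxia label to 4.8, 4.94 and 4.74 under the hypoxia label (1.11 ± 0.09; -0.12 with trimmed mean factors). Morc2a, a partner of the HUSH silencing complex, went from 3.95, 3.75 and 3.49 to 5.28, 5.36 and 5.22 (1.56 ± 0.12; 0.32 with trimmed mean factors, adjusted p = 0.0183, limma). Dnmt3a, a DNA methyltransferase, went from 4.21, 4.48 and 4.42 to 2.62, 2.71 and 3.02 (-1.59 ± 0.13). Of the Zfp36 genes that the rule left out, Zfp36l1, which promotes decay of messenger RNAs with AU-rich elements, was listed and lower (-1.05 ± 0.08).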

How the data were processed

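Libraries were made with a stranded messenger RNA kit from DNase-treated RNA, per the labels' protocols. Per the submitters' processing notes, the tools were DRAGEN, with no version named, and FastQC 0.12.0, and the build was GRCm39. The authors deposited 1 log2 entry per gene and library; raising 2 to the entry and subtracting 1 gave 3 decimals throughout (tolerance 1e-06), so entries were read as log2(value + 1). Their log2 fold change is the difference of group means. The adjusted p-value that the authors deposited is at most 0.0926, and its test is not stated. Depth is unknown, and the number of libraries limits the precision. Another 21 columns (repeats, and values of mice of no sample) were not used.

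Genes reaching a value of 1 in 3 or more libraries entered limma 3.58.1 (R 4.3.3), with trend and robust estimation, pseudocount 1 and Benjamini-Hochberg adjustment over 2056 genes, with a threshold of 0.05, after checks on simulated data. Trimmed mean factors were computed without weights, trimming 30% of log ratios and 5% of means at each end. Fingers were counted in the longest GENCODE vM21 protein of each gene (cysteines 2 to 4 residues apart, then 12 residues, then histidines 3 to 5 apart). KRAB boxes were found with a HMMER profile of 173 boxes of 42 residues (E-value under 1e-05). The members and lists were chosen with earlier results of these data known, and members were split by KRAB box after their values had been seen. Named genes were all members and all listed genes of the fixed lists, as set out in the report; the gene sharing stretches with a member was named by its share.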

Additional observations from a re-analysis of the deposited data

How the results depend on the processing

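The count of 25 higher and 4 lower members, among them the fingerless Zbtb8os, held with pseudocounts of 0.1 and 5, with no filter, without trend, without robust estimation and at a threshold of 0.01; over all genes 1633 to 1638 were then higher and 416 to 427 lower. A filter of 5 left out 7 members, and of the rest 18 were called higher and 4 lower, beside 1418 and 348 of all genes. Leaving out a library gave 24 to 25 higher and 4 lower members, beside 1528 to 1633 and 375 to 423 of all genes; the smaller count of higher members arose because Zfp493 no longer reached a value of 1 in 3 libraries. With the replicate block, which uses the labelled numbers, 25 members were called higher and 4 lower, beside 1627 and 418 of all genes. Only replicate numbers 2 and 4 occur in both groups, so the changes of that fit rest on those libraries alone. Little spread is left to judge them by, so these counts are no check on the calls. Nothing in the labels says that a number marks a shared culture, and deviations of same-numbered libraries correlated at 0.0822 (replicate 2) and -0.0725 (replicate 4). Without Zbtb8os, an alternative chosen after seeing the data, 24 were higher. The looser finger spacing again gave 28 genes. KRAB limits of 0.001, 0.1 and 1, also chosen after seeing the data, gave 17 higher members and 1 lower, Zkscan17.

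Trimmed mean factors left 9 members and 543 of all genes called higher (the factors centre the table by construction). The median change of tested members, 1.13 as deposited, was 1.39 with a pseudocount of 0.1, 0.65 with 5, 0.31 with quantile normalization and 0.10 with trimmed mean factors. Changes turned with trimmed mean factors in Zfp251 (-0.09), Zfp428 (-0.15), Zfp146 (-0.21), Prdm15 (-0.03), Tshz1 (-0.04), Setdb1 (-0.12), Hdac4 (-0.07) and Kat2b (-0.16). Quantile normalization ended the calls of Zfp955b, Zfp251, Zfp428 and Zfp146. Of 454 values of members under alternatives, 434 kept direction and side of the threshold, 17 lost the call and 3 turned. Every lost call and every turn came from quantile normalization or trimmed mean factors, which rescale the libraries. With trimmed mean factors 16 of the 25 higher members were not called, and with quantile normalization 4 were not. Sequencing depth is not given by the files, so the counting error of low values is unknown.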
